A study of Bos taurus with 12 samples.

Results

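The genes of cholesterol synthesis and transport were followed through the differentiation of bovine intramuscular preadipocytes. A list of 28 gene symbols was looked up in the mRNA expression matrix, which has 33714 rows. Of these, 23 had a row of their own. HMGCS1, MSMO1, SREBF2 and SCAP appeared only in rows that name a second gene, where the value cannot be divided between the genes, and STARD4 had no row. The study isolated preadipocytes, the precursors of fat cells, from newborn Qinchuan cattle, with the longissimus dorsi as the source muscle. The sample labels call the cells intramuscular adipocytes and the tissue intramuscular fat. Cells grew in complete DMEM-F12 medium with FBS. At 90% confluence they received a cocktail of IBMX (0.5 mM), dexamethasone and insulin (5 µg/ml) for 48 h, and insulin alone afterwards. The 0 d cells were not induced, while the 3, 6 and 9 d cells were harvested that long after induction, when only insulin was still being given. The labels and the methods differ on the doses of dexamethasone and insulin, and on whether the long RNA was selected by its poly(A) tail or freed of rRNA. Each day had 3 libraries, which the methods describe as biological replicates, and the p-values given here measure the spread between these samples. The study describes the cells as the same batch and does not state how many animals they came from. mRNA levels are in FPKM (fragments scaled to the length of the transcript and to the mapped reads of the library), which allow levels to be compared between genes. The FPKM of all rows of a library summed to 1221194 to 1371794. FPKM hold no counts, so the depth behind a single value is unknown. The libraries held 5358 to 10729 back-spliced reads for circRNAs and 1438548 to 4673382 reads for miRNAs.

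Cells build cholesterol from acetyl-CoA. The first enzymes make mevalonate and turn it into isoprenoid units, FDPS joins these to farnesyl diphosphate, FDFT1 and SQLE make and oxidise squalene, and the sterol enzymes close, trim and reduce the ring system. Most of these genes are induced by SREBP2, the product of SREBF2. When membranes are rich in sterol, the INSIG proteins hold SREBP2 and its escort SCAP in the endoplasmic reticulum. Cholesterol taken up with lipoproteins leaves the lysosome through NPC2 and NPC1, and ABCA1 and ABCG1 export it from the cell. Oxysterols activate the nuclear receptor LXR, which induces ABCA1, ABCG1 and the E3 ubiquitin ligase MYLIP. Fat cells hold a large store of free cholesterol, much of it around their lipid droplets.

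The cell type on the labels was checked against marker genes. Of 8 adipocyte markers, 6 had a row of their own (PPARG and PLIN1 did not). Their summed level lay within 7.87 to 8.61 FPKM (0 d), 97.99 to 109 (3 d), 30.6 to 33.4 (6 d) and 16.1 to 20.96 (9 d). FABP4, a fatty acid carrier of adipocytes, was the most abundant of them over the 12 libraries together, at 3.36, 3.02 and 3.52 FPKM at 0 d, where LPL was above it, and 94.7, 86.2 and 92.3 at 3 d. At 3 d, 4 of the 6 were called higher than at 0 d (all genes 8.06%) and all 6 fold changes were above 0, so adipocyte markers rose, although from low levels. ADIPOQ rose by 2.68 at 3 d vs. 0 d and PLIN4 by 2.36 at 6 d vs. 0 d on the log2 scale, but both stayed below 2 FPKM and were not called with a pseudocount of 1 (0.74 and 0.97). Fibroblast and preadipocyte markers were far more abundant, with sums of 24230.5 to 25251.8 FPKM at 0 d and 62285.6 to 65026 at 9 d. DCN, a matrix proteoglycan, was the most abundant of them over all libraries, though at 0 d COL1A2 was above it, and DLK1 was below the filter on low values. Of the 7 tested, 6 rose and none fell at 9 d vs. 0 d by the adjusted p (all genes 9.69% and 27.2%), with all 7 fold changes above 0. At 3 d vs. 0 d the same list was mixed, with 4 called higher and 3 lower (all genes 8.06% and 15.2%). Those called lower were PDGFRB, COL1A1 and COL1A2. Their means were 586, 3018 and 10800 FPKM at 0 d and 226, 941 and 4771 at 3 d. PDGFRA rose by 2.54 and THY1 by 1.85 at 3 d vs. 0 d, and DCN by 2.16 at 9 d vs. 0 d. Muscle markers were also present, at 697 to 820.5 FPKM (0 d), 272 to 301 (3 d), 369.9 to 415 (6 d) and 275 to 301 (9 d). DES was the most abundant muscle gene over the 12 libraries, and the myogenic factor MYOD1 stood at 239.8, 260.2 and 303 FPKM at 0 d. Both MYOD1 and ACTA1 fell at 6 d vs. 0 d, by 2.51 and 2.18, and MYOG fell by 2.08 at 9 d vs. 0 d. The cultures thus held RNA of a muscle program on every day, highest at 0 d. Endothelial markers stayed between 2.47 and 3.49 FPKM in sum in every library, mostly VWF, and 4 of the 6 were below the filter. TEK fell by 1.02 at 6 d vs. 3 d (adjusted p = 2.98e-04) and was not called without 3 d replicate 1 (-0.97) or 6 d replicate 3 (-0.94), nor after rescaling (-0.95) or with a pseudocount of 1 (-0.57). What part these marker genes have in the changes of the cholesterol genes was not tested. In such bulk samples, fewer cells of a type and less RNA per cell cannot be told apart.

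Each comparison was tested with limma on log2(FPKM + 0.1). The added 0.1 makes fold changes of genes near that level smaller than they are in FPKM. A gene was called when its log2 fold change was over 1 in size and its adjusted p was under 0.05. Genes with a mean FPKM of at least 0.1 were tested, 15402 in all, among them all 23 members with a row of their own. Because many changes of cholesterol genes were smaller than that fold, an adjusted p under 0.05 at any fold was counted as well, a rule chosen after seeing the data. The days after induction against 0 d show what differs from uninduced cells, while 6 d vs. 3 d and 9 d vs. 6 d follow the cells after the cocktail was withdrawn. The comparisons share libraries and are not independent of each other.

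At 3 d vs. 0 d, 4 members were called higher and 1 lower, beside 8.06% and 15.2% of all tested genes. With an adjusted p under 0.05 at any fold, 8 rose and 2 fell (34.8% and 8.7%), beside 21.7% and 30.5% of all genes. At 6 d vs. 0 d, none was called higher, since none had a log2 fold change over 1, and 2 were called lower (all genes 3.39% and 7.97%). Again at any fold, 7 rose and 3 fell, or 30.4% and 13% of members, where 10.0% and 24.8% of all genes did. At 9 d vs. 0 d, 1 member was higher and 8 lower at any fold (4.35% and 34.8%), near the shares of all genes (9.69% and 27.2%). After FPKM were rescaled between libraries, 4 were higher (ABCA1, MVK, HSD17B7 and NPC2) and 4 lower. Called at 9 d vs. 0 d were 1 higher and 3 lower (all genes 3.41% and 7.47%), or 1 and 1 after rescaling. Rescaling by the median ratio shifted the median of all genes by 0.08, 0.15 and 0.19 (log2) at 3, 6 and 9 d vs. 0 d, by 0.07 at 6 d vs. 3 d and by 0.03 at 9 d vs. 6 d.

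Between 3 d and 6 d, no member was called higher and 4 were called lower, beside 9.85% and 9.23% of all genes, and rescaling added CYP51A1 as called higher (1.15 with an adjusted p of 0.0557 as deposited, 1.23 and 0.0414 rescaled). At any fold 3 rose and 7 fell (13% and 30.4%), where 22.4% and 27.1% of all genes did, so the share that fell was near that of all genes. Between 6 d and 9 d, 1 was called higher and 3 lower, beside 2.55% and 1.89% of all genes. At any fold 2 rose and 10 fell, 8.7% and 43.5% of members, beside 10.0% and 10.7% of all genes. Without 6 d replicate 3 the 12 members past the test at 9 d vs. 6 d became 7 and the 4 called became 2, and without 6 d replicate 2 the 4 called became 1. The median log2 fold change of the 23 members against 0 d was 0.18 at 3 d, 0.26 at 6 d and -0.26 at 9 d, beside -0.06, -0.15 and -0.19 for all genes. It was 0.10 at 6 d vs. 3 d and -0.37 at 9 d vs. 6 d, beside -0.09 and -0.04. Mean levels show the same shape without a test, since 6 d gave the highest mean for 12 of the 23 members, 3 d for 6, 0 d for 4 and 9 d for 1. Among all tested genes the 6 d share was 14.6%, the 3 d share 37.1%, the 0 d share 36.3% and the 9 d share 12%.

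**Figure D1:**
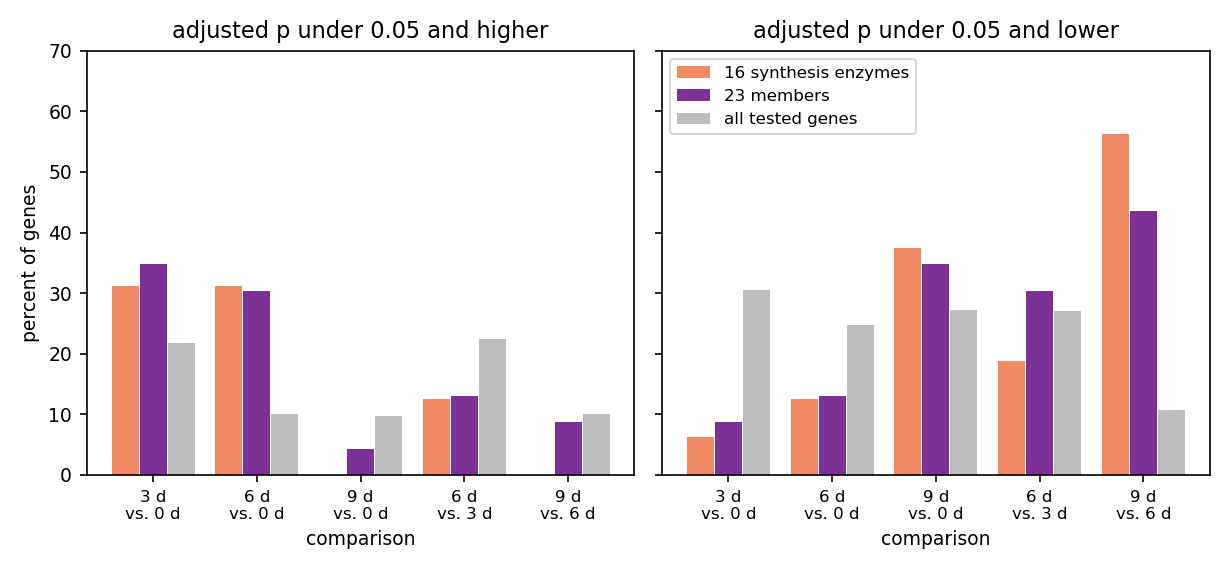
Percent of genes with an adjusted p under 0.05 that were higher (left) or lower (right) in each comparison, for the 16 synthesis enzymes with a row of their own, the 23 members and all 15402 tested genes. At 9 d vs. 6 d the members that fell made up 43.5% and all genes that fell 10.7%. At 9 d vs. 0 d the members split 1 higher to 8 lower as deposited (all genes 9.69% and 27.2%) and 4 to 4 after rescaling.

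The early enzymes carry acetyl-CoA to farnesyl diphosphate. FDPS, the synthase at the branch point to squalene and to other isoprenoids, was the most abundant of those with changes past the test. Its levels were 72.3, 64.5 and 76.1 FPKM (0 d), 77.9, 88.8 and 92.7 (3 d), 84.6, 98.6 and 90.6 (6 d), and 52.2, 49.5 and 48.4 (9 d). All 9 d libraries were below the 0 d libraries, and all 3 d and 6 d libraries above them. FDPS fell by 0.86 on the log2 scale at 9 d vs. 6 d (SE 0.089, adjusted p = 1.04e-04) and by 0.50 at 9 d vs. 0 d (SE 0.089, adjusted p = 0.00157), the latter a log2 fold change of -0.30 after rescaling. It rose at 6 d vs. 0 d, with a log2 fold change of 0.36 (SE 0.089, adjusted p = 0.00976). The rise at 3 d, 0.28 (SE 0.089, adjusted p = 0.0216), was no longer past the test without 0 d replicate 2 or 3 d replicates 2 or 3 (adjusted p = 0.0633 to 0.0802).

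ACAT2, the thiolase that joins the first acetyl units, had 47.97, 41.4 and 50.4 FPKM (0 d), 46.7, 47.2 and 48.03 (3 d), 53.4, 62.6 and 67.3 (6 d), and 38.3, 40.9 and 36.8 (9 d). Its 6 d libraries were above those of every other day. The rise at 6 d vs. 0 d was 0.39 (SE 0.097, adjusted p = 0.0108) on the log2 scale, with an adjusted p of 0.0558 when only the 6 libraries compared were fitted. ACAT2 then fell by 0.65 at 9 d vs. 6 d (SE 0.097, adjusted p = 0.00108). MVD, which decarboxylates the diphosphate of mevalonate, ranged from 19.2 to 33.5 FPKM. It rose by 0.37 at 6 d vs. 0 d (SE 0.091, adjusted p = 0.00998) and fell by 0.60 at 9 d vs. 6 d (SE 0.091, adjusted p = 0.00115), and its libraries did not overlap in either comparison. A smaller rise at 3 d (0.24, adjusted p = 0.0489) was lost without 0 d replicates 1 or 2, 3 d replicates 2 or 3, 6 d replicates 1 or 3 or 9 d replicates 1, 2 or 3 (adjusted p = 0.0516 to 0.161). MVK, the mevalonate kinase, ranged from 12.5 to 19.9 FPKM and rose at 6 d vs. 0 d, with a log2 fold change of 0.42 (SE 0.11, adjusted p = 0.012). After rescaling it also passed at 3 d (0.31, adjusted p = 0.0372) and at 9 d (0.47, adjusted p = 0.00893), each vs. 0 d.

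PMVK, the kinase after MVK, was the one called member of this group and behaved unlike its neighbours. Its levels were low, at 0.56, 1.25 and 0.09 FPKM (0 d), 1.15, 4.39 and 4.86 (3 d), 0.15, 0.11 and 0.14 (6 d), and 0.58, 0.89 and 0.67 (9 d). The 3 d libraries spread over 1.15 to 4.86 FPKM and the 0 d libraries over 0.09 to 1.25, so these days overlapped, while all 6 d libraries were below all 3 d libraries. PMVK was called higher at 3 d vs. 0 d, with a log2 fold change of 2.45 (SE 0.68, adjusted p = 0.0122), but not when only the 6 libraries compared were fitted (adjusted p = 0.0665, range over its alternatives 0.00342 to 0.0665, and 1.38 to 3.1 for the log2 fold change). At 6 d vs. 3 d it fell by 3.7 (SE 0.68, adjusted p = 0.00128), a log2 fold change that ranged from -4.36 to -1.85 over its alternatives, and its 6 d values lie near the added 0.1.

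IDI1, the isomerase that makes the reactive isoprenoid unit, is shown in full although it was not called, and it was chosen for this after its values were seen. Its levels were 61.3, 83.8 and 71.6 FPKM (0 d), 80.7, 22.4 and 157 (3 d), 90.2, 108 and 131 (6 d), and 14.2, 89.7 and 14.2 (9 d). Libraries of the same day differed up to 6.99-fold at 3 d and 6.33-fold at 9 d, and the 9 d replicate 2 library was far above the other two. Its log2 fold change of -2.04 at 9 d vs. 6 d thus had an SE of 0.79 and an adjusted p of 0.101. The row shared by HMGCS1, the synthase before mevalonate, and TRH held 11.6, 6.65 and 11.5 FPKM (0 d), 22.8, 26.8 and 17.00 (3 d), 24.7, 29.4 and 27.96 (6 d), and 10.5, 12.02 and 10.6 (9 d). Its 3 d and 6 d libraries were all above those of 0 d and 9 d. The row was called higher at 3 d vs. 0 d (1.18, SE 0.22, adjusted p = 0.00124) and at 6 d vs. 0 d (1.5, SE 0.22, adjusted p = 4.82e-04), and lower at 9 d vs. 6 d, where it fell by 1.3 (SE 0.22, adjusted p = 0.00238). Without 0 d replicate 2 the change at 3 d was 0.92 and was not called. Of the 6 early enzymes with a row of their own, 3 rose and 0 fell at 3 d vs. 0 d, 4 rose and 0 fell at 6 d vs. 0 d, and 0 rose and 3 fell at 9 d vs. 6 d, by the adjusted p alone (all genes 21.7% and 30.5%, 10.0% and 24.8%, and 10.0% and 10.7%). The 3 that rose at 3 d, PMVK, MVD and FDPS, did not pass when only the 6 libraries compared were fitted (adjusted p = 0.0665, 0.0895 and 0.0608). At an unadjusted p under 0.05, 1 of the 6, PMVK, was higher at 9 d vs. 6 d (1.79), and IDI1 was also lower (-2.04). The medians of the 6 were 0.23, 0.38 and -0.63, beside all-gene medians of -0.06, -0.15 and -0.04.

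FDFT1, the squalene synthase, opens the branch that leads to sterols alone. Its levels were 5.63, 5.87 and 7.14 FPKM (0 d), 10.2, 10.3 and 9.58 (3 d), 9.72, 12.2 and 9.97 (6 d), and 5.15, 5.02 and 4.59 (9 d). The 3 d and 6 d libraries were all above every 0 d and 9 d library. FDFT1 rose at 3 d vs. 0 d (0.69, SE 0.11, adjusted p = 5.15e-04) and at 6 d vs. 0 d (0.77, SE 0.11, adjusted p = 4.97e-04), in both cases below the fold needed for a call. It was called at 9 d vs. 6 d, where it fell by 1.09 (SE 0.11, adjusted p = 1.13e-04). Without 6 d replicate 2 that change was -0.99, and with a pseudocount of 1 it was -0.97, just short of a call. At 9 d vs. 0 d it was lower by an adjusted p of 0.0477 (log2 fold change -0.32), a result lost under 15 of 19 alternatives, rescaling among them (-0.13), and without 0 d replicates 2 or 3, 3 d replicates 1, 2 or 3, 6 d replicates 1 or 3 or 9 d replicates 1, 2 or 3 (adjusted p = 0.0515 to 0.152).

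SQLE, which oxidises squalene, ranged from 2.12 to 4.06 FPKM and had its 3 lowest libraries at 9 d. It fell by 0.70 at 9 d vs. 6 d (SE 0.11, adjusted p = 0.00163). It also fell by 0.44 at 9 d vs. 0 d (SE 0.11, adjusted p = 0.0119), but after rescaling the change was -0.24 with an adjusted p of 0.152. LSS, the cyclase that closes the ring system, ranged from 24.9 to 52.4 FPKM. At 9 d vs. 6 d it fell by 0.44 (adjusted p = 0.0444), which did not pass without 0 d replicates 1, 2 or 3, 3 d replicate 3, 6 d replicates 1, 2 or 3 or 9 d replicate 3 (adjusted p = 0.0534 to 0.118).

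CYP51A1, the demethylase that acts on lanosterol, had 3.78, 6.48 and 3.31 FPKM (0 d), 5.78, 2.93 and 3.04 (3 d), 8.34, 7.86 and 9.05 (6 d), and 5.68, 1.77 and 1.76 (9 d). All 6 d libraries were above those of the other days, and at 9 d replicate 1 stood apart at 5.68 while the other two were below 2 FPKM. CYP51A1 was called at 9 d vs. 6 d, where it fell by 1.64 (SE 0.45, adjusted p = 0.0272). The call was lost without 6 d replicates 1, 2 or 3 or 9 d replicates 2 or 3 (adjusted p = 0.0633 to 0.0977). It was also lost when only the 6 libraries compared were fitted (adjusted p = 0.0658). NSDHL, the dehydrogenase that helps remove the methyl groups, had 1.31, 1.41 and 1.14 FPKM (0 d), 0.88, 1.36 and 1.08 (3 d), 1.53, 1.73 and 1.75 (6 d), and 0.23, 0.78 and 0.92 (9 d). Here too the 6 d libraries were above all others, and the 9 d libraries, of which replicate 1 was the lowest, were below those of 0 d and 6 d. NSDHL fell by 1.41 at 9 d vs. 6 d (SE 0.36, adjusted p = 0.0199), a call lost without 6 d replicates 2 or 3 or 9 d replicate 1. Without that 9 d library the change was -0.90, and without either of the other two the adjusted p was 0.0588. NSDHL was not called with a pseudocount of 1 (-0.73), nor when only the 6 libraries compared were fitted (adjusted p = 0.0861). Its call at 9 d vs. 0 d, -1.05 (SE 0.36, adjusted p = 0.0427), was weaker still, being lost under 14 of 19 alternatives. It was lost without 0 d replicates 1, 2 or 3, 3 d replicates 2 or 3, 6 d replicates 1, 2 or 3 or 9 d replicate 1, with an adjusted p of 0.017 to 0.126 over all alternatives and a change of -0.54 without that last library. CYP51A1 and NSDHL are low genes, and their libraries of 1 day differed up to 3.23-fold and 4-fold.

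TM7SF2, which reduces the sterol ring at the step after CYP51A1, moved apart from the rest. Its levels were 35.5, 36.01 and 40.5 FPKM (0 d), 4.3, 6.66 and 3.54 (3 d), 8.18, 7.41 and 6.34 (6 d), and 5.01, 6.58 and 6.52 (9 d). Every library after induction was below every 0 d library, with means of 37.3 FPKM at 0 d and 4.83, 7.31 and 6.04 at 3, 6 and 9 d. TM7SF2 fell by 2.97 at 3 d (SE 0.21, adjusted p = 1.07e-06), by 2.34 at 6 d (SE 0.21, adjusted p = 1.56e-05) and by 2.62 at 9 d (SE 0.21, adjusted p = 8.32e-06), each vs. 0 d. This was the largest fall of any member against 0 d. It was higher at 6 d than at 3 d by an adjusted p of 0.0302 (log2 fold change 0.63), but the libraries of these days overlapped, and the result was lost without 3 d replicates 1 or 3 or 6 d replicates 1 or 2 (adjusted p = 0.0724 to 0.106).

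HSD17B7, the ketosteroid reductase of the same demethylation complex as NSDHL, was high on a single day. Its levels were 16.5, 14.7 and 15.3 FPKM (0 d), 43.9, 42.3 and 42.9 (3 d), 13.9, 15.7 and 14.4 (6 d), and 17.1, 18.7 and 15.9 (9 d). The 3 d libraries lay within 42.3 to 43.9 FPKM and all others within 13.9 to 18.7. HSD17B7 rose 2.77-fold at 3 d vs. 0 d, a log2 fold change of 1.47 (SE 0.078, adjusted p = 1.34e-07), and fell by 1.55 at 6 d vs. 3 d (SE 0.078, adjusted p = 1.34e-07). Both calls held under every alternative tried.

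EBP, the sterol isomerase, ranged from 3.25 to 6.45 FPKM with no overlap between 3 d, 6 d and 9 d, each lower than the one before. It fell by 0.77 at 9 d vs. 0 d (SE 0.089, adjusted p = 1.08e-04) and by 0.36 at 6 d vs. 3 d (SE 0.089, adjusted p = 0.0074). The fall of 0.40 at 6 d vs. 0 d had an adjusted p of 0.00599, but 0.0866 after rescaling. The fall of 0.37 at 9 d vs. 6 d (adjusted p = 0.0158) was lost without 6 d replicate 3 or 9 d replicate 1 (adjusted p = 0.0544 to 0.0553). SC5D, the desaturase, ranged from 13.5 to 62.9 FPKM and DHCR7, which reduces the last double bond of its branch, from 1.17 to 2.94 FPKM, and neither passed the test in any comparison made. For SC5D, 0 d replicate 1 at 13.5 and 3 d replicate 3 at 19.5 FPKM stood below all other libraries, which held 41.96 or more. The row shared by MSMO1, a methyl sterol oxidase, and KLHL2 ranged from 18.2 to 26.3 FPKM. It was higher at 3 d vs. 0 d (log2 fold change 0.27, adjusted p = 0.0188), though not without 0 d replicate 2 or 3 d replicate 1 (adjusted p = 0.0547 to 0.0704). It was lower at 9 d vs. 6 d (-0.29, adjusted p = 0.0311), though not without 6 d replicates 2 or 3 or 9 d replicates 1 or 3 (adjusted p = 0.0641 to 0.108). Of the 10 squalene and sterol enzymes with a row of their own, 2 rose and 1 fell at 3 d vs. 0 d (all genes 21.7% and 30.5%). At 6 d vs. 0 d, 1 rose and 2 fell (all genes 10.0% and 24.8%), so the shares that rose were near those of all genes. At 9 d vs. 6 d none rose and 6 fell (all genes 10.0% and 10.7%). There HSD17B7 (log2 fold change 0.23) was higher at an unadjusted p under 0.05. Without 6 d replicate 3 only FDFT1 and SQLE of the 6 passed. The medians of the 10 were 0.07, 0.24 and -0.40, beside -0.06, -0.15 and -0.04 for all genes.

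**Figure D2:**
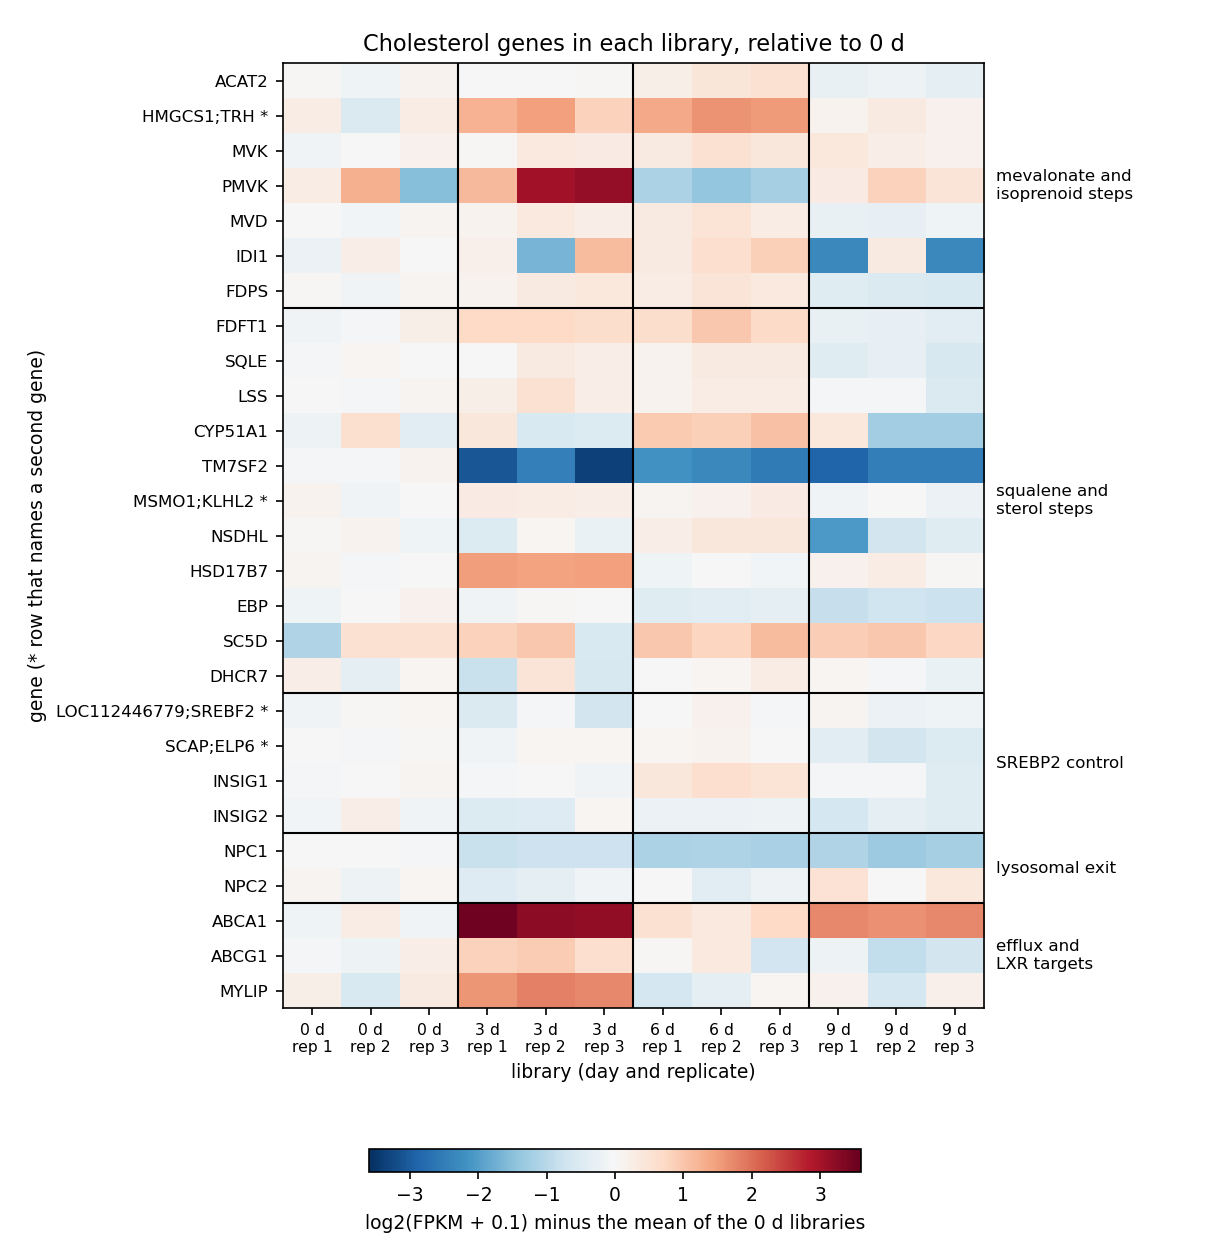
Level of each member in each of the 12 libraries, as log2(FPKM + 0.1) minus the mean of the 0 d libraries, ordered by role. Red is above and blue below 0 d. The 9 d columns are paler or bluer than the 6 d columns for most synthesis enzymes, TM7SF2 and NPC1 are blue on every later day, and ABCA1, MYLIP and HSD17B7 are red at 3 d in all 3 libraries.

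**Figure D3:**
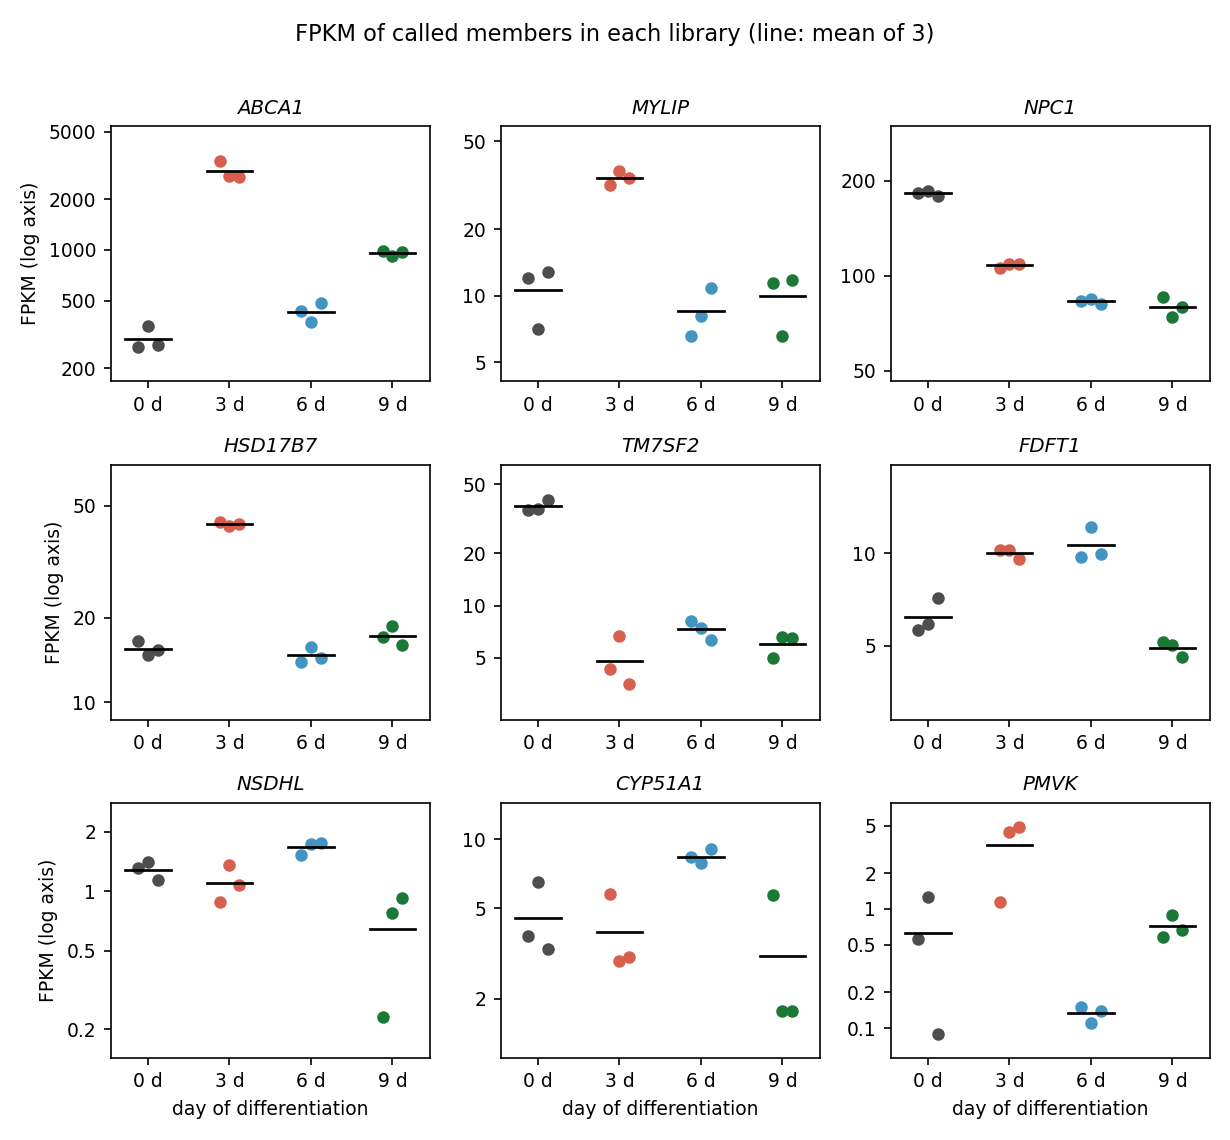
FPKM (log axis) of the 9 members with a row of their own that were called in any comparison, with 1 point per library, 3 libraries per day and a line at their mean. HSD17B7 stands at 42.3 to 43.9 FPKM at 3 d and at 13.9 to 18.7 on the other days, while the points of PMVK spread widely within 0 d and 3 d.

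Taken as a list, the 16 synthesis enzymes with a row of their own had a median log2 fold change of -0.52 at 9 d vs. 6 d, where the median of all genes was -0.04. By the adjusted p, 9 of the 16 fell (ACAT2, MVD, FDPS, FDFT1, SQLE, LSS, CYP51A1, NSDHL and EBP) and none rose, beside 10.7% and 10.0% of all genes. Of the 16, 14 lay below the median of all genes. PMVK and HSD17B7, the other two, were higher at an unadjusted p under 0.05. Rescaling left 8 that fell and none that rose, with a median of -0.49. Without 6 d replicate 3 the count was 5. At 6 d vs. 0 d the median was 0.36 (all genes -0.15), with 5 that rose (ACAT2, MVK, MVD, FDPS and FDFT1) and 2 that fell (TM7SF2 and EBP), beside 10.0% and 24.8% of all genes. After rescaling SQLE also rose (0.42, adjusted p = 0.0191) and EBP no longer passed. At 3 d vs. 0 d, 5 rose (PMVK, MVD, FDPS, FDFT1 and HSD17B7) and TM7SF2 fell, or 31.25% and 6.25% (all genes 21.7% and 30.5%). The median was 0.20 beside -0.06, and the 6 past the test became 3 when only the 6 libraries compared were fitted. At 9 d vs. 0 d, 6 fell (FDPS, FDFT1, SQLE, TM7SF2, NSDHL and EBP) and none rose, or 37.5% and 0% (all genes 27.2% and 9.69%). At an unadjusted p under 0.05 MVK was higher, and ACAT2 and MVD were lower. After rescaling 3 fell (FDPS, TM7SF2 and EBP) and 2 rose (MVK and HSD17B7). The median of -0.29 (all genes -0.19) then became -0.09 (all genes -0.01). At 6 d vs. 3 d, 2 rose and 3 fell (12.5% and 18.75%), both below the shares of all genes (22.4% and 27.1%). The median was 0.16 beside -0.09.

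**Figure D4:**
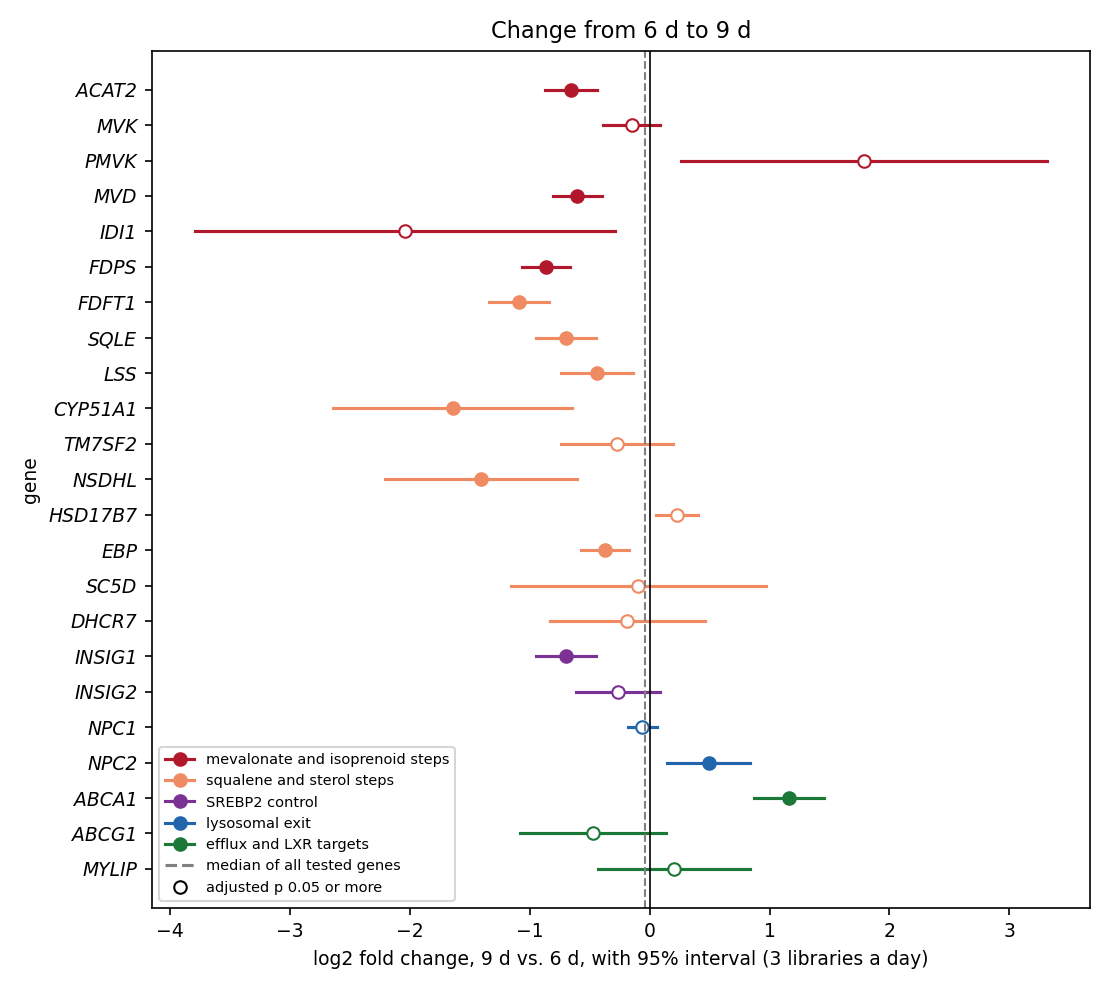
Log2 fold change at 9 d vs. 6 d of the 23 members with a row of their own, with its 95% interval from limma (3 libraries a day), coloured by role. Filled points have an adjusted p under 0.05, and the dashed line is the median of all tested genes. The 9 filled points of the synthesis enzymes and that of INSIG1 lie to the left of it, those of ABCA1 (1.16) and NPC2 (0.49) to the right.

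Markers of proliferation moved in the same direction as the 9 synthesis enzymes that fell between 6 d and 9 d. Of 8 such markers none was called in any comparison, but 6 fell by the adjusted p at 9 d vs. 6 d (all genes 10.7%) and all 8 lay below 0, with a median of -0.48 beside -0.04 for all genes. Their summed level lay within 133 to 164 FPKM (0 d), 164 to 185 (3 d), 142 to 163 (6 d) and 99.96 to 106 (9 d). PLK1 was the most abundant and none was at 0. The part of these markers in the fall of those enzymes was not tested.

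Of the genes that control SREBP2, INSIG1 is itself known as an SREBP target. It had 6.33, 6.55 and 7.18 FPKM (0 d), 6.53, 6.76 and 6.12 (3 d), 8.94, 10.2 and 9.51 (6 d), and 6.35, 6.46 and 4.87 (9 d). The 6 d libraries were above all others, as they were for ACAT2 and CYP51A1. INSIG1 rose at 6 d vs. 0 d (0.51, SE 0.11, adjusted p = 0.0058) and vs. 3 d (0.55, SE 0.11, adjusted p = 0.00234), and fell by 0.70 at 9 d vs. 6 d (SE 0.11, adjusted p = 0.00175), below the fold of a call each time. INSIG2, the other retention protein, ranged from 10.9 to 19.7 FPKM. It was lower at 9 d vs. 0 d (-0.47, adjusted p = 0.0396), but not after rescaling (adjusted p = 0.244, range over its alternatives 0.00871 to 0.244). That result was also lost without 0 d replicates 1 or 2, 6 d replicates 1, 2 or 3 or 9 d replicates 1, 2 or 3. The row of SREBF2 and LOC112446779 ranged from 16.2 to 28.5 FPKM. Its changes at 3 d vs. 0 d (-0.41, adjusted p = 0.04) and 6 d vs. 3 d (0.44, adjusted p = 0.0308) came from days whose libraries overlapped. The first was lost without 0 d replicates 2 or 3, 3 d replicates 1 or 3, 6 d replicate 1 or 9 d replicate 3 (adjusted p = 0.0524 to 0.143), the second without 3 d replicates 1 or 3 or 6 d replicates 1 or 2 (adjusted p = 0.0615 to 0.11). The row of SCAP and ELP6 was very abundant, from 1031 to 1797 FPKM, with all 9 d libraries below all others. It fell by 0.52 at 9 d vs. 0 d (SE 0.076, adjusted p = 4.71e-04), which became -0.32 after rescaling, and by 0.59 at 9 d vs. 6 d (SE 0.076, adjusted p = 4.53e-04), and how much of it belongs to SCAP cannot be told from the row.

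Cholesterol leaves the lysosome by way of NPC2, a soluble carrier, and NPC1, the membrane protein that receives it. NPC1 had 183, 186 and 179 FPKM (0 d), 106, 109 and 109 (3 d), 83.3, 84.5 and 81.5 (6 d), and 85.5, 74.2 and 79.8 (9 d). The libraries of each day lay close together, with 0 d above 3 d and 3 d above both later days, and 6 d and 9 d overlapping. NPC1 fell by 0.76 at 3 d (SE 0.055, adjusted p = 1.42e-06), by 1.13 at 6 d (SE 0.055, adjusted p = 2.26e-07) and by 1.19 at 9 d (SE 0.055, adjusted p = 2.25e-07), each vs. 0 d, the later days being called. Most of the fall came by 3 d, and a further 0.38 between 3 d and 6 d (SE 0.055, adjusted p = 2.84e-04). After rescaling the changes at 6 d and 9 d were -0.97 and -0.99, which kept an adjusted p of 3.85e-07 and 4.47e-07 but missed the fold of a call. NPC2 ranged from 38.95 to 77.1 FPKM and did not follow NPC1, having its highest mean at 9 d (67.6 ± 11.3 FPKM, SD, 3 libraries) and 54.5 ± 5.85 at 0 d. Between 6 d and 9 d it was higher by 0.49 with an adjusted p of 0.0492, which did not pass without 0 d replicates 1, 2 or 3, 3 d replicates 1, 2 or 3, 6 d replicates 2 or 3 or 9 d replicates 1 or 3 (adjusted p = 0.0505 to 0.161). Against 0 d its 9 d value was 0.30 (SE 0.15, adjusted p = 0.16), or 0.50 with an adjusted p of 0.0314 after rescaling. Of 7 muscle markers, 5 were also called lower and none higher at 3 d vs. 0 d (all genes 15.2% and 8.06%). At 6 d vs. 3 d, 5 fell and 1 rose by the adjusted p (all genes 27.1% and 22.4%). DES was the gene that rose (1.19, adjusted p = 5.34e-07), and the muscle sum was higher at 6 d than at 3 d. The part of these markers in the fall of NPC1 and of TM7SF2 was not tested. Their sums are given above, PAX7 had no row of its own, and no muscle marker with a row was at 0 in all libraries.

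ABCA1, which loads cellular cholesterol onto lipid-poor apolipoproteins, had the largest change of any member against 0 d. Its levels were 267, 354 and 273 FPKM (0 d), 3377, 2734 and 2699.8 (3 d), 433, 376 and 483 (6 d), and 981, 919 and 975 (9 d). The days did not overlap, with 3 d the highest, then 9 d, 6 d and 0 d. ABCA1 rose 9.88-fold at 3 d vs. 0 d, a log2 fold change of 3.3 (SE 0.13, adjusted p = 1.59e-08). At 6 d vs. 3 d it fell by 2.77 (SE 0.13, adjusted p = 8.92e-08), which left it above 0 d by 0.53 (SE 0.13, adjusted p = 0.00994). A second rise followed at 9 d, of 1.16 (SE 0.13, adjusted p = 1.97e-04) vs. 6 d, and of 1.7 (SE 0.13, adjusted p = 6.65e-06) vs. 0 d. All 5 results held under every alternative tried. The second rise thus fell between the same days as the decline of 9 of the 16 synthesis enzymes (5 without 6 d replicate 3, all genes 10.7%).

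MYLIP, an E3 ubiquitin ligase and LXR target, had 11.99, 7.08 and 12.9 FPKM (0 d), 31.5, 36.5 and 34.2 (3 d), 6.58, 8.14 and 10.9 (6 d), and 11.4, 6.61 and 11.8 (9 d). Its 3 d libraries were all above 30 FPKM and the others below 13. MYLIP rose 3.28-fold at 3 d vs. 0 d (1.71, SE 0.28, adjusted p = 5.39e-04) and fell by 2.01 at 6 d vs. 3 d (SE 0.28, adjusted p = 2.16e-04). Unlike for ABCA1, its libraries at 9 d overlapped those of 6 d and 0 d, with a log2 fold change of 0.20 at 9 d vs. 6 d (adjusted p = 0.696). Whether these genes differed from each other at 9 d was not tested. ABCG1, the partner of ABCA1 that exports cholesterol to mature lipoproteins, was low, at 0.75, 0.69 and 0.96 FPKM (0 d), 1.5, 1.58 and 1.25 (3 d), 0.82, 1.04 and 0.45 (6 d), and 0.69, 0.38 and 0.47 (9 d). All 3 d libraries were above all others. At 3 d vs. 0 d it was higher by 0.78 (adjusted p = 0.0343), though not without 0 d replicates 1 or 2 or 3 d replicates 1 or 2 (adjusted p = 0.0824 to 0.0982). At 6 d vs. 3 d it fell by 0.88 (adjusted p = 0.0214), though not without 3 d replicates 1 or 2 or 6 d replicate 3 (adjusted p = 0.057 to 0.0659). All 3 efflux genes and LXR targets thus rose at 3 d vs. 0 d (all genes 21.7%), with a median of 1.71. All 3 fell at 6 d vs. 3 d (all genes 27.1%), with a median of -2.01. Against 0 d their median was -0.10 at 6 d and -0.10 at 9 d, but 0.05 and 0.10 after rescaling.

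Macrophages are rich in ABCA1, and some of their markers also rose at 3 d. Of 8 macrophage markers 4 passed the filter, and 3 of these were called higher at 3 d vs. 0 d (all genes 8.06%). PTPRC and MARCO, which mark leukocytes and macrophages, were at 0 in all 12 libraries, and AIF1 and MSR1 were below the filter. The summed level lay within 1.68 to 1.97 FPKM (0 d), 88.8 to 207 (3 d), 14.8 to 30.1 (6 d) and 5.21 to 6.73 (9 d). At 3 d nearly all of it was CD163, a scavenger receptor, with 0.59, 0.79 and 0.57 FPKM at 0 d and 204, 114 and 85.2 at 3 d. CD14 rose by 1.71 (1.02 to 1.84 over its alternatives) and CSF1R by 1.23 on the log2 scale, the latter from 0.29, 0.5 and 0.2 to 0.84, 0.8 and 0.97 FPKM. CSF1R was not called without 0 d replicate 3, where the change fell just short of 1 (adjusted p = 0.00371), or with a pseudocount of 1 (0.50). Between 6 d and 9 d, when ABCA1 rose again, these markers went both ways, CD163 from 28.3, 26.4 and 12.96 to 3.97, 2.72 and 2.98 FPKM and CD14 from 1.25, 1.32 and 1.24 to 2.21, 2.61 and 1.83. The part of these genes in the rise of ABCA1 was not tested.

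Other genes of the same pathways were counted from lists. Of 11 tested LXR receptors and targets, 5 rose at 3 d vs. 0 d by the adjusted p (all genes 21.7%), while the list as a whole had a median of -0.04 that became 0.04 after rescaling. SCD, the desaturase that makes oleic acid, had 28.3, 30.1 and 22.9 FPKM at 0 d and 279.8, 246 and 299 at 3 d, and rose by 3.34 (SE 0.13, adjusted p = 1.51e-08). SMPDL3A fell by 1.72 at 9 d vs. 0 d (adjusted p = 3.80e-05), to 0.31, 0.28 and 0.25 FPKM, and was not called with a pseudocount of 1 (-0.75). Between 6 d and 9 d, 2 of the 11 rose and 3 fell (all genes 10.0% and 10.7%).

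Among 22 tested genes of sterol transport and esterification, 5 rose and 8 fell at 3 d vs. 0 d by the adjusted p (22.7% and 36.4%, beside 21.7% and 30.5% of all genes), with a median of -0.12, and at 9 d vs. 6 d, 4 rose and 3 fell (18.2% and 13.6%, all genes 10.0% and 10.7%), with a median of 0.08. OSBPL10, of the oxysterol-binding protein family, fell by 1.86 at 3 d vs. 0 d (SE 0.23, adjusted p = 6.68e-05), and GRAMD1B, which moves cholesterol from the plasma membrane to the endoplasmic reticulum, by 1.84 at 6 d vs. 0 d (SE 0.16, adjusted p = 1.22e-05), with -1.97 to -1.13 over its alternatives. APOA1, the acceptor of cholesterol from ABCA1, was at 0 FPKM in every 3 d library and held 1.42, 0.06 and 0.7 FPKM at 6 d. That difference was called (adjusted p = 0.00831), though not with a pseudocount of 1, where the change was 0.71. Of 7 tested genes that process or degrade SREBP proteins, 3 rose and 2 fell at 3 d vs. 0 d (all genes 21.7% and 30.5%) and 1 rose and 5 fell at 6 d vs. 3 d (all genes 22.4% and 27.1%), with medians of 0.31 and -0.62. PAQR3, a Golgi protein known to bind SCAP, had 28.6, 26.5 and 27.8 FPKM (0 d), 85.7, 92.7 and 95.1 (3 d), 34.9, 36.5 and 35.7 (6 d), and 19.2, 19.8 and 22.7 (9 d). It was highest at 3 d, with a log2 fold change of 1.72 (SE 0.073, adjusted p = 2.71e-08), and was the only gene of its list that was called. Of 11 tested genes that use farnesyl diphosphate for prenyl groups, dolichol and ubiquinone, none rose and 1 fell at 9 d vs. 6 d (all genes 10.0% and 10.7%). At an unadjusted p under 0.05, 1 was higher, and GGPS1 (-0.91) and NUS1 (-0.18) were among those lower. Of the 11, 9 lay below 0, with a median of -0.18. DHDDS, which builds the dolichol chain, was their one called gene, with 0.55, 0.64 and 0.52 FPKM at 3 d and 1.4, 1.36 and 1.26 at 6 d (log2 fold change 1.11, or 0.58 and not called with a pseudocount of 1). Over all 64 tested genes of these and the fatty acid and oxysterol lists, 11 rose and 9 fell at 9 d vs. 6 d (all genes 10.0% and 10.7%), with a median of 0.04.

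The same loci were read in the circRNA and miRNA libraries. Back-spliced reads assigned to members were few, with 22 circRNAs from 7 host genes and 79 reads over the 12 libraries. SCAP hosted 11 of them with 28 reads, SC5D 2 with 27, HSD17B7 2 with 8, ABCA1 3 with 6, MSMO1 2 with 6, HMGCS1 1 with 3 and MYLIP 1 with 1. The 6 reads from ABCA1 were spread over 5 libraries and all 4 days, too few to set against the change of its mRNA. Of the 22, 4 had at least 5 reads and were tested with edgeR against 0 d, and 0 were called, 0 had an unadjusted p under 0.05 and DESeq2 called 0. Of all 2828 tested circRNAs, 0.813%, 0.530% and 0.566% were called at 3, 6 and 9 d. The smallest adjusted p was 0.585, and no change in these circRNAs was detected.

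The hairpins of miR-33a and miR-33b lie within SREBF2 and SREBF1, and their main 5′ strands are known to target ABCA1. No row of the miRNA table carries the cattle name of either mature miRNA, and 3 rows were matched by their hairpin, a choice made after seeing the data. The 2 from the 3′ arm are printed because they tell which strand was read, with bases 2 to 8, the seed, in capitals:
hsa-miR-33b-3p_R-1: cAGTGCCTcggcagtgcagcc
chi-miR-33a-3p: cAATGTTTccacagtgcatca

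The 2 seeds differ from each other. The third row, bta-mir-33a-p5, is not read as a mature strand here. No row holds the main 5′ strand, which was therefore not analysed here. Taking the build of the methods, ARS-UCD1.2 (the processing notes name a mouse build), the hairpin of miR-33a lies at chr5:112884573-112884649 and that of miR-33b at chr19:34647548-34647641, both on the plus strand. hsa-miR-33b-3p_R-1 had 301 reads, with 16, 24 and 0 (0 d), 23, 37 and 26 (3 d), 16, 50 and 38 (6 d), and 33, 18 and 20 (9 d). These days overlapped. bta-mir-33a-p5 had 71 reads in all and chi-miR-33a-3p 18, with 0 reads of the latter in every 0 d and 9 d library. With edgeR, 0 of the 3 were called against 0 d on any day, 0 had an unadjusted p under 0.05 (smallest adjusted p 0.308) and DESeq2 called 0. Of all 1081 tested miRNAs, 6.38%, 11.3% and 18.3% were called at 3, 6 and 9 d. No change in these rows was detected.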

How the data were processed

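The authors mapped the long RNA reads to the bovine genome (ARS-UCD1.2) and assembled transcripts, with HISAT2 2.0 and StringTie 1.3.0 in their processing notes, and the deposited mRNA values are FPKM. For circRNAs the deposited values are a count of back-spliced reads and SRPBM, a signal made from that count with 1 factor per library. As for miRNAs, mapped with Bowtie 0.12.2 by the same notes, the deposited raw values are an estimated count in which shared reads were split, and the norm columns are a signal equal to it times 1 factor per library. The SRPBM and norm columns and the 12 lncRNA columns were not used here.

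The 28 members and all other lists were chosen with earlier results of these data known. Rows were matched by gene symbol, and RefSeq names (ARS-UCD2.0) served only to check them. Rows that name a second gene were tested but left out of all counts. FPKM were tested with limma 3.58.1 (eBayes with a trend) on log2(FPKM + 0.1) for rows with a mean FPKM of at least 0.1, in 1 fit of all 12 libraries with 4 day means. Both count tables went through the quasi-likelihood test of edgeR 4.0.16 with TMM factors against 0 d, after a minimum of 5 reads over all libraries for circRNAs and 10 for miRNAs, whose estimated counts were rounded. DESeq2 1.42.0 served as the alternative test. Adjusted p-values are Benjamini-Hochberg within each comparison over all tested features, and a call takes an adjusted p under 0.05 with a log2 fold change over 1 in size. R 4.3.3, Python 3.11.15, pandas 2.3.3 and Matplotlib 3.10.9 were used.

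All 28 members are described, in full where a call was made between days whose libraries did not overlap. From each other list (LXR receptors and targets, sterol transport and esters, SREBP processing and turnover, prenyl branch, oxysterol enzymes, fatty acid synthesis, and markers of adipocytes, fibroblasts and preadipocytes, muscle, macrophages, endothelium and proliferation), up to 3 called genes with the largest change are named. Not every gene picked by this rule is described. The settings varied were the pseudocount (1 or 0.01), the filter on low values (none, or a minimum mean FPKM of 1), the scaling between libraries (by the median ratio), the libraries fitted (the 6 compared alone, or all but 1 in turn) and the replicate number (as a block). For the count tables they were the tool, the filter, the block and the library left out. The adjusted p at any fold, the match of miR-33 by hairpin and the count over synthesis enzymes were added after seeing the data. Promoter motifs were not analysed here.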

Additional observations from a re-analysis of the deposited data

How the results depend on the processing

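Of 87 results for a gene in a comparison, 52 kept their direction and their side of the threshold under every alternative tried, 35 were weaker under at least 1, and 0 reversed. Of 1643 recomputed values, 1489 stayed and 154 were weaker, 99 of these among the 1044 values with 1 library left out. Weaker values numbered 13 with a pseudocount of 1, 2 with 0.01, 8 with no filter, 0 of 77 with a mean FPKM of at least 1, 12 after rescaling and 16 of 87 with only the 6 libraries compared, which are fewer samples. Members called at 9 d vs. 6 d numbered 2 with a pseudocount of 1 (4 as reported). After rescaling, members called numbered 1 at 6 d vs. 0 d (2 as reported) and 2 at 9 d vs. 0 d (4 as reported). With only the 6 libraries compared, 3 synthesis enzymes had an adjusted p under 0.05 at 3 d vs. 0 d (6 as reported). With each library left out in turn, members called at 9 d vs. 6 d ranged from 1 to 5, members with an adjusted p under 0.05 from 7 to 12 and synthesis enzymes from 5 to 9. Fits with libraries left out also hold fewer samples, and the cause of these shifts was not tested.

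With the replicate number as a block, every call of a member held, and the adjusted p was no longer under 0.05 for MVD at 3 d vs. 0 d, FDFT1 at 9 d vs. 0 d, and LSS and the row of MSMO1 and KLHL2 at 9 d vs. 6 d, so members past it at 9 d vs. 6 d numbered 11 with the block and 12 without. After removal of each day's mean, libraries of different days with the same replicate number had a Pearson r across genes of -0.0981 to 0.112 (18 pairs, 2 over 0.1), and the other 36 pairs -0.190 to 0.183 (3 over 0.1), and genes are not independent replicates. No circRNA hosted by a member and no miR-33 row was called under any alternative, including the block. The depth behind FPKM is unknown, low members (PMVK, NSDHL, ABCG1) depend on the pseudocount, the rows of HMGCS1, MSMO1, SREBF2 and SCAP hold a second gene, and 3 libraries a day limit the precision of every change.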

Other observations

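The enzymes of the oxysterol list oxidise cholesterol or, as CYP7B1 does, act on oxysterols. All 4 tested fell at 3 d vs. 0 d by the adjusted p (all genes 30.5%), with a median log2 fold change of -1.53 (all genes -0.06). CYP27A1, the mitochondrial sterol hydroxylase, had 85.04, 82.4 and 93.2 FPKM (0 d), 22.9, 26.02 and 23.97 (3 d), 51.5, 53.9 and 52.8 (6 d), and 63.5, 61.3 and 63.5 (9 d). Its 3 d libraries were below all others, and it fell by 1.83 (SE 0.065, adjusted p = 7.10e-09). Those of 6 d and 9 d were still below 0 d. CYP7B1, which hydroxylates oxysterols, had 153, 143 and 121 FPKM (0 d), 83.2, 70.8 and 89.6 (3 d), 255, 252 and 254 (6 d), and 269, 284 and 289.9 (9 d). It rose by 1.65 at 6 d vs. 3 d (SE 0.099, adjusted p = 4.93e-07), and all 6 d and 9 d libraries were above those of 0 d and 3 d. CH25H, the cholesterol hydroxylase that makes a known LXR ligand, had 6.49, 4.99 and 9.42 FPKM (0 d), 0.91, 1.22 and 1.43 (3 d), 3.11, 4.27 and 4.08 (6 d), and 187, 11.6 and 57.1 (9 d). Its 9 d libraries were all above the rest but spread from 11.6 to 187 FPKM. The rise at 9 d vs. 6 d was 3.69 (SE 0.78, adjusted p = 0.00762), with an adjusted p of 0.0561 when only the 6 libraries compared were fitted (range over its alternatives 2.20e-04 to 0.0561).

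Of 9 tested genes of fatty acid synthesis and desaturation, 5 rose and 3 fell at 3 d vs. 0 d by the adjusted p (all genes 21.7% and 30.5%), with a median of 0.47. At 9 d vs. 6 d, 2 rose and 1 fell (all genes 10.0% and 10.7%), and after rescaling none fell by the adjusted p. FADS2, a desaturase of long fatty acids, had 3.66, 1.18 and 3.73 FPKM (0 d), 12.95, 15.7 and 15.2 (3 d), 7.03, 8.1 and 8.65 (6 d), and 19.4, 20.2 and 12.2 (9 d). All libraries after induction were above those of 0 d, and at 9 d vs. 0 d it rose by 2.68 (SE 0.38, adjusted p = 3.74e-04). FADS1, the desaturase that follows it, fell by 1.05 at 6 d vs. 0 d (SE 0.11, adjusted p = 5.83e-05), which became -0.89 after rescaling and was then not called. THRSP, a lipogenic nuclear protein, was barely detected, with 0, 0 and 0.05 FPKM at 0 d and 0.51, 0.22 and 0.49 at 3 d. Its call at 3 d vs. 0 d (adjusted p = 0.00102) was lost with a pseudocount of 1, where the change was 0.46.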
